A study of Mus musculus with 6 samples.

Results

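A set of 47 genes of DNA replication and nucleotide supply was followed in cultured mouse aortic smooth muscle cells after knockdown of Ezh2. The members were a list of gene symbols, chosen with earlier results of these data known. They cover origin licensing, helicase activation, the replication fork, flap processing and repair, nucleotide supply, chromatin assembly and E2F factors. All 47 symbols were found, each with 1 gene ID, among 27502 genes in the deposited tables. The cells were vascular smooth muscle, which gives the vessel wall its tone, grown in culture from mouse aorta, and their RNA was sequenced. At 48 hours there were 3 samples with small interfering RNA against Ezh2, the main methyltransferase of Polycomb repressive complex 2 (siEzh2), and 3 control samples. The treatment of the controls, the siRNA sequence and the strain, sex and age of the mice are not known from the labels. Nothing in the labels ties the samples to different cultures or mice, so the p-values reflect the variation among these 6 samples and that may be technical.

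A cell copies its DNA once per division cycle in ordered steps. In G1 phase the origin recognition complex, Cdc6 and Cdt1 load the ring-shaped MCM2-7 helicase onto origins, which is called licensing. In S phase the kinase Cdc7 with its activator Dbf4 helps to start the helicase, which joins Cdc45 and the GINS complex, and polymerases, a sliding clamp and its loader copy both strands. Ribonucleotide reductase and thymidylate enzymes supply the deoxynucleotides, and chromatin assembly factor 1 places histones on the new DNA. Many of these genes are known targets of E2F transcription factors, whose activity is restrained by the RB family and by the atypical repressors E2f7 and E2f8. Smooth muscle cells of the healthy vessel wall divide rarely, whereas they divide in culture.

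Values were FPKM, read fragments scaled by exon length and by library size. Reads recovered from the steps of the FPKM values came to 18248440 to 18753124 per control sample and 16080005 to 17553743 per siEzh2 sample. Depth was thus lower in every siEzh2 sample, whereas fewer genes stood at 0 there (5854 to 6094, against 6515 to 6645 in control). The targeted gene, Ezh2, was 3.26 times lower after knockdown, at 3.41 to 3.88 FPKM in controls against 1.0496 to 1.2008 FPKM. Of the smooth muscle markers, Acta2 was abundant (mean 699 FPKM in control), whereas Myh11 and Cnn1, which mark contractile cells, had control means of 1.83 and 1.14 FPKM. The summed level of 8 smooth muscle markers was 872 to 897 FPKM in control and 607 to 646 FPKM in siEzh2 samples. Ptprc, which defines leukocytes, was near 0 in both groups (4 reads in each), and the 8 macrophage and leukocyte markers summed to 17.5 to 20.9 and 14.1 to 15.3 FPKM. Endothelial markers (6 genes) summed to 3.89 to 4.18 FPKM in control and 4.60 to 5.28 FPKM in siEzh2 samples, and fibroblast markers (5 genes) to 69.1 to 72.8 and 62.7 to 66.0 FPKM. Single markers within these 3 lists went both ways. By the test described below, 2 macrophage and leukocyte markers were higher and 2 lower. For endothelial markers the numbers were 1 and 1, and for fibroblast markers 1 and 2. Smooth muscle markers did not go both ways: of 6 tested, 5 were lower and 0 higher, beside 22.7% of all tested genes called lower. The 13 genes of the mitochondrial genome, whose share can follow RNA quality, summed to 19081 to 19794 FPKM in control and 15861 to 16976 FPKM in siEzh2 samples. Of these 13, 8 were called lower and 0 higher. The part of these shifts in the results below was not tested. In bulk RNA, more cells in S phase and more of a transcript per cell cannot be told apart.

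Genes from every step were higher in the siEzh2 samples, and members that did not pass were in licensing, activation, the fork, nucleotide supply and the E2F factors. Of the 47 members 33 were called higher and 0 lower, 10 did not pass the test, and 4 (Fen1, Exo1, Ung and E2f2) were below the filter of a mean of 1 FPKM in at least 1 group. Calls were made at an adjusted p under 0.05 by limma with Benjamini-Hochberg adjustment over all 11869 tested genes. The background is high, since 24.1% of all tested genes were called higher and 22.7% lower. Because the members were chosen with earlier results known, their counts beside this background are a description. Fold changes were taken on log2(FPKM + 1), so those of weakly expressed genes are understated. The 43 tested members had a median log2 fold change of 0.27, against 0.01 over all tested genes. The range ran from −0.14 (Tyms) to 0.86 (Cdt1). Mcm10, counted among the 33, reached the filter only through its siEzh2 samples, which fixed its direction. Exo1, with a highest group mean of 0.982 FPKM, lay just outside the filter.

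**Figure D1:**
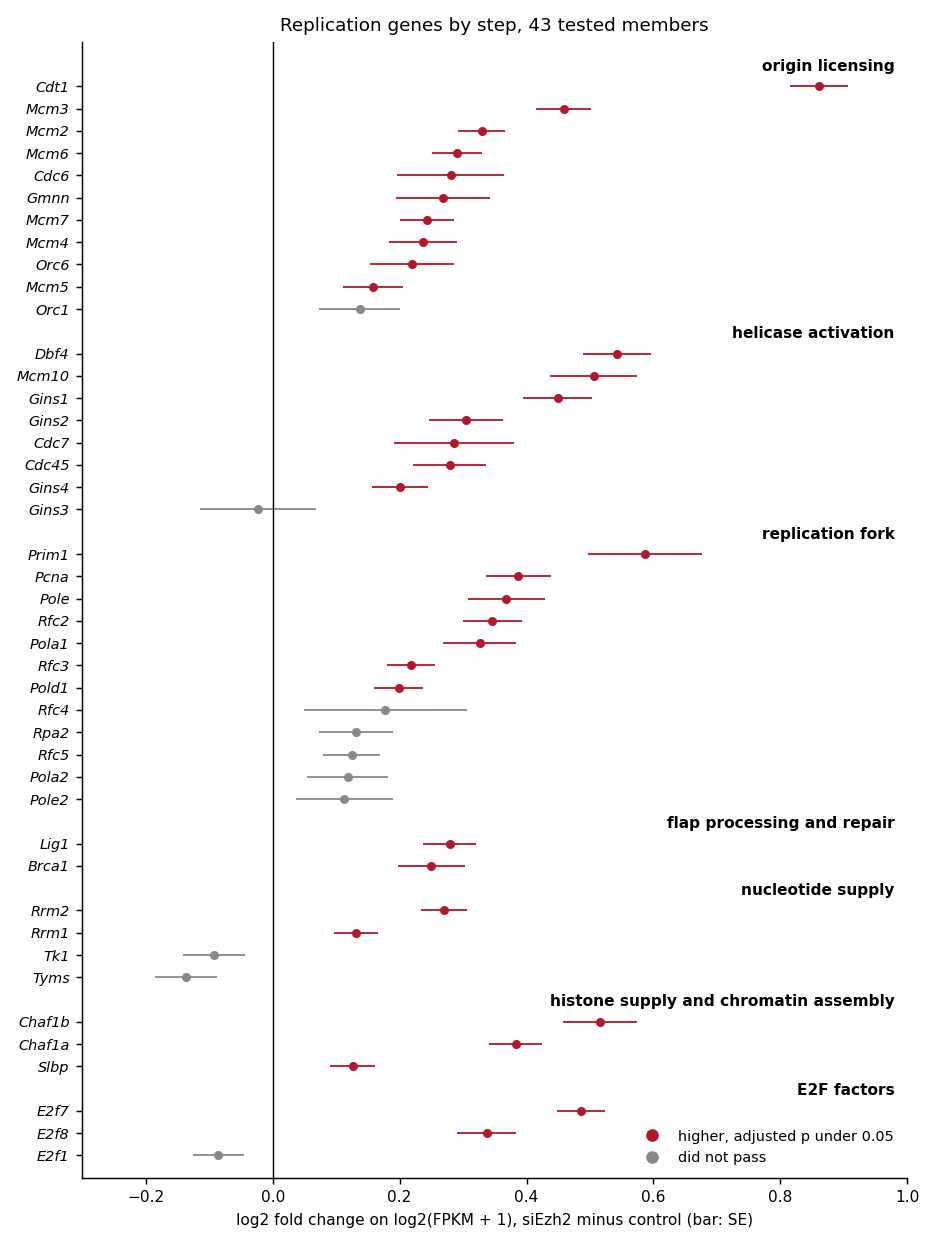
Log2 fold change of 43 tested members on the log2(FPKM + 1) scale (x axis, siEzh2 minus control), with the standard error as a bar and the genes grouped by step on the y axis. Members called higher are red and members that did not pass are grey. Cdt1 lies farthest to the right at 0.86, and Gins3, Tk1, Tyms and E2f1 lie left of 0.

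Taken gene by gene, all 3 siEzh2 samples lay above all 3 control samples in 35 tested members, and all below in 1, Tyms. In the background this held upward for 30.0% of tested genes and in either direction for 58.1%. Summed over the 47 members the level was 315 ± 4.78 FPKM in control and 389 ± 4.36 FPKM in siEzh2 samples (SD, n = 3 each), a ratio of 1.23. No siEzh2 sample was the highest throughout: sample 1 had the highest value of its group in 13 of 43 tested members, sample 2 in 19 and sample 3 in 11.

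**Figure D2:**
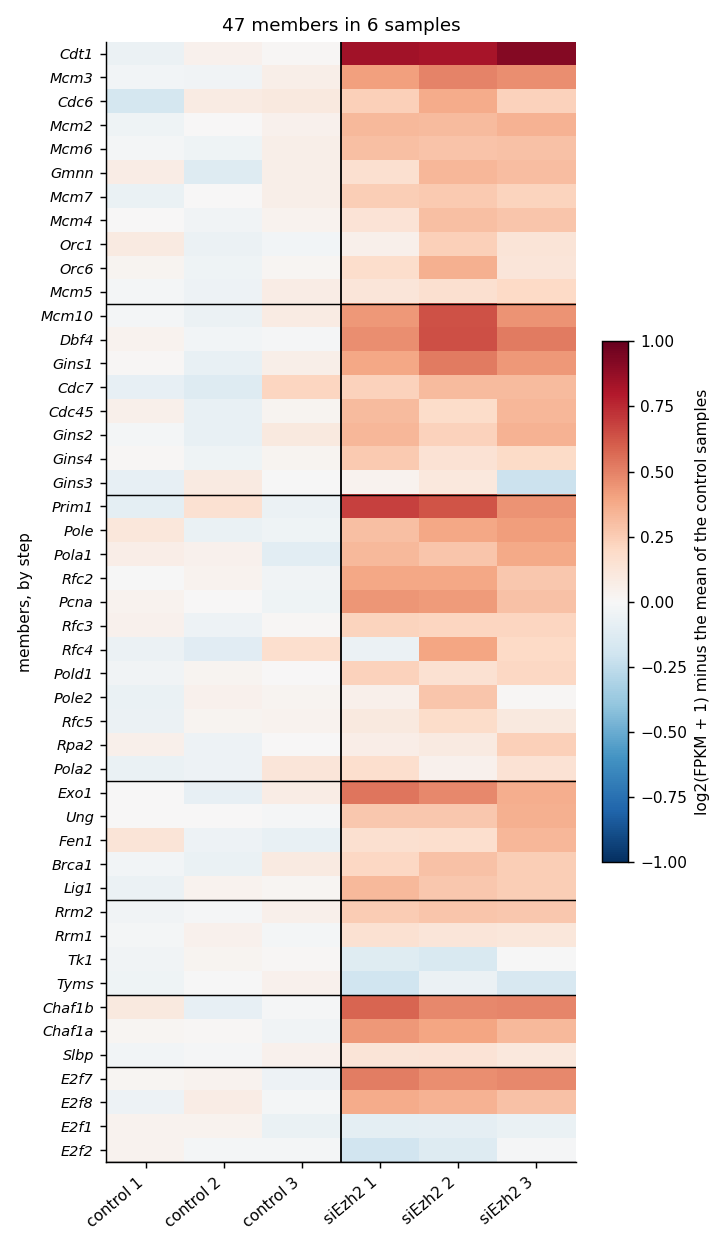
Each row is 1 of the 47 members, ordered by step (black lines) and by ratio within a step, and each column is a sample. Colour gives log2(FPKM + 1) minus the mean of the control samples, from blue (lower) to red (higher), and the 3 siEzh2 columns are red in most rows, whereas Tk1, Tyms, E2f1 and E2f2 have at least 1 blue and no red siEzh2 column.

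**Figure D3:**
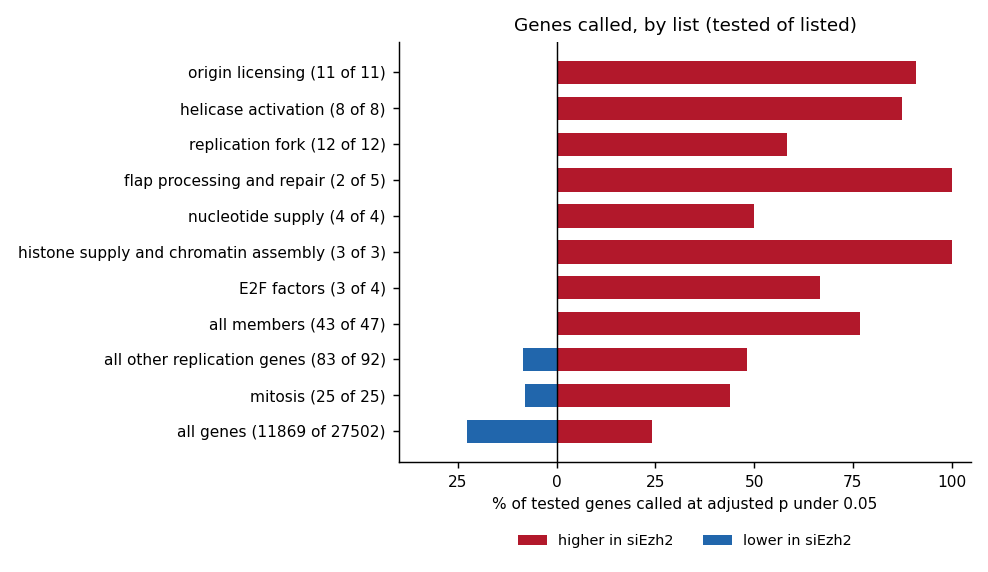
Bars give the share of tested genes called higher (red, to the right) or lower (blue, to the left) at an adjusted p under 0.05, with the number tested and the number listed beside each name. All tested genes stand at 24.1% and 22.7%, and no member was called lower.

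Promoters of the members often held letters of an E2F site. RefSeq promoters (GRCm38.p6, from 250 bases before to 50 after each start) were in the table for 39 members, and Gmnn, Mcm4, Gins1, Gins2, Gins4, Rfc2, Pole and Exo1 had no entry. Forms of the E2F site were searched on both strands. The first was TTCGCGC. Another was TTGGCGC, which can overlap the first when they lie on opposite strands. The last was TTCCCGC. A match stood in 28 of 45 member promoters (62.2%), against 14.4% of the 11058 promoters of tested genes and 8.07% of all 32851 promoters. Counted by gene, 18 of 26 members called higher had a match, and so had 5 of 10 that did not pass. Among all tested genes with a promoter in the table the share was 17.1%. The core of the CHR element of mitotic genes, TTTGAA, stood in 20.0% of member promoters, 11.8% of promoters of tested genes and 17.9% of all promoters, and in 72.7% of the 22 promoters of mitosis genes, where E2F letters stood in 18.2%. A match is a description of letters, not evidence of binding.

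The windows below belong to the tested member with the largest log2 fold change on log2(FPKM + 1) in its step, 5′ to 3′ on the gene's strand, with the E2F letters in capitals; Dbf4 and Rrm2, first in their steps, had no match in this window. Mcm6, which was called higher, and Orc1 and Gins3, which did not pass, were added as examples after their values were seen.
Cdt1 (chr8:122568035-122568063, plus strand, 33 bases after the start): gggaactacctttTTGGCGCcatggcgca
Prim1 (chr10:128015189-128015217, plus strand, 15 bases before the start): ggcctgtcttgTTCCCGCcaattctcgtg
Lig1 (chr7:13279257-13279285, plus strand, 3 bases after the start): cagaattagtgGCGCCAAgagaagagggg
Chaf1b (chr16:93883663-93883691, plus strand, 227 bases before the start): tcctccgaggcGCGGGAAtgggattccca
E2f7 (chr10:110745336-110745364, plus strand, 92 bases before the start): cgcggcgccgaGCGCCAAgacagcgaggg
E2f7 (chr10:110745230-110745258, plus strand, 198 bases before the start): cccgcgtccccGCGGGAAacgctcccgcg
Mcm6 (chr1:128359797-128359825, minus strand, 109 bases before the start): ggcgtatgcttTTGGCGCgaaaagtgcgt
Orc1 (chr4:108579416-108579444, plus strand, 27 bases before the start): ttcggttagtgGCGCGAAaagttttctcc
Gins3 (chr8:95633507-95633535, plus strand, 41 bases before the start): gcgagtgcggcGCGGGAAagcgagtttga
Distances are to the first capital letter, and a motif on the opposite strand appears as its reverse complement.

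Of the 11 licensing genes 10 rose (90.9%), and the background for this and each step below is the 24.1% of all tested genes called higher. Cdt1, which brings the MCM helicase to origins (ENSMUSG00000006585, chromosome 8 from 122568015 to 122573554, plus strand, mm10), had 4.90, 5.34 and 5.21 FPKM in control and 10.04, 9.86 and 10.6 FPKM in siEzh2 samples. The groups were far apart, and the mean rose 1.97 times (log2 fold change 0.86, SE 0.0456, adjusted p = 8.49e-05, limma). Gmnn encodes geminin, the protein that binds and blocks Cdt1. Its values were 7.25, 6.18 and 7.17 FPKM in control and 7.76, 8.90 and 8.75 FPKM in siEzh2 samples, closer together but without overlap, and it rose 1.23 times (adjusted p = 0.0265, limma). Gmnn no longer passed when control 2 (adjusted p = 0.0597), siEzh2 2 (0.0794) or siEzh2 3 (0.0767) was left out, with the replicate number as a block (0.062) or with no filter on low values (0.0659).

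Because Cdt1 and geminin act against each other, their ratio was taken within each sample. The FPKM ratio of Cdt1 to Gmnn was 0.676, 0.865 and 0.727 in control and 1.29, 1.11 and 1.22 in siEzh2 samples. All siEzh2 ratios were above all control ratios, with means of 0.756 ± 0.0975 and 1.21 ± 0.0925 (SD, n = 3 each). The exact permutation test gave p = 0.10 (two-sided), the smallest that 3 samples against 3 allow. Protein levels, by which Cdt1 is chiefly regulated in the cycle, were not measured here.

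**Figure D4:**
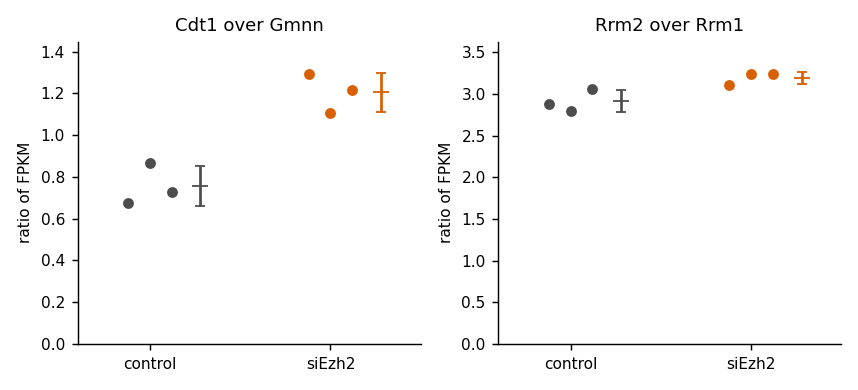
Ratio of FPKM within each sample (y axis) for Cdt1 over Gmnn and for Rrm2 over Rrm1, in 3 control and 3 siEzh2 samples, with the mean and SD beside the points. For Cdt1 over Gmnn the siEzh2 samples lie between 1.11 and 1.29 and the control samples between 0.676 and 0.865.

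All 6 subunits of the MCM2-7 ring rose, between 1.13 and 1.40 times. Mcm3 (chromosome 1 from 20802968 to 20820312, minus strand) rose most, with 13.1, 13.0 and 13.98 FPKM in control and 18.1, 19.3 and 18.8 FPKM in siEzh2 samples (log2 fold change 0.46, SE 0.0437, adjusted p = 0.000518, limma). Mcm2 had 7.82, 8.12 and 8.38 FPKM in control and 10.4, 10.3 and 10.6 FPKM in siEzh2 samples (log2 fold change 0.33, adjusted p = 0.000914, limma). Mcm6 rose 1.24 times, Mcm7 1.20 times, of whose exon bases 8.70% are antisense to other genes, and Mcm4 1.19 times. Mcm5 rose 1.13 times (adjusted p = 0.0336, limma), but not when control 1 (adjusted p = 0.0926), control 2 (0.0994), siEzh2 2 (0.0834) or siEzh2 3 (0.0915) was left out, nor with no filter on low values (0.0621). The 6 proteins sit in the ring in equal numbers, and per kilobase of exon the control means ran from 8.10 FPKM (Mcm2) over 11.3 (Mcm5), 11.8 (Mcm6), 12.4 (Mcm7) and 13.4 (Mcm3) to 15.2 FPKM (Mcm4). The ranges of Mcm5, Mcm6 and Mcm7 over the control samples overlapped, although their order was the same within each control sample. In siEzh2 samples the highest 2 were Mcm3 at 18.7 ± 0.600 and Mcm4 at 18.1 ± 1.17 FPKM (SD, n = 3 each), with overlapping ranges but Mcm3 higher in each of the 3 samples. The length behind each FPKM counts every annotated exon, so levels between genes are approximate.

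Cdc6, the loading ATPase, had 1.88, 2.46 and 2.48 FPKM in control and 2.85, 3.21 and 2.83 FPKM in siEzh2 samples and rose 1.30 times (adjusted p = 0.0357, limma). Dropping siEzh2 1 (adjusted p = 0.0658), 2 (0.102) or 3 (0.0634) ended that call, as did quantile normalization (0.0543) and no filter on low values (0.0884). Orc6, a subunit of the origin recognition complex, had 9.67, 9.19 and 9.62 FPKM in control and 10.9, 12.4 and 10.4 FPKM in siEzh2 samples, 1.18 times higher (adjusted p = 0.0356, limma). Dropping control 1 (adjusted p = 0.0722), 2 (0.10) or 3 (0.0769) or siEzh2 1 (0.0593), adding the replicate block (0.0715) or using no filter (0.082) ended the call of Orc6. Orc1, the subunit of that complex that varies with the cycle, was the licensing gene that did not pass. It had 1.26, 1.041 and 1.08 FPKM in control and 1.197, 1.51 and 1.32 FPKM in siEzh2 samples, which overlap, with a log2 fold change of 0.14 (95% interval −0.02 to 0.29), and 10.8% of its exon overlaps an antisense gene.

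Helicase activation had 7 of 8 genes higher (87.5%, beside 24.1% of all tested genes). The 7 include Mcm10, whose direction was fixed by the filter. Dbf4, the activator of the Cdc7 kinase (chromosome 5 from 8396973 to 8422716, minus strand), had 2.03, 1.90 and 1.93 FPKM in control and 3.08, 3.61 and 3.23 FPKM in siEzh2 samples. It rose 1.69 times (log2 fold change 0.54, SE 0.0539, adjusted p = 0.000604, limma). Its partner Cdc7 had 1.36, 1.29 and 1.91 FPKM in control and 1.93, 2.11 and 2.12 FPKM in siEzh2 samples, so that control sample 3 nearly reached the siEzh2 samples. Cdc7 passed the test by a narrow margin (adjusted p = 0.0478, limma). It failed when control 1 (adjusted p = 0.131), control 2 (0.127) or siEzh2 1 (0.0766), 2 (0.116) or 3 (0.116) was left out, and with a pseudocount of 0.1 (0.0588), quantile normalization (0.0825) or no filter on low values (0.116).

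Mcm10, which helps to activate the loaded helicase, had 0.947, 0.893 and 1.09 FPKM in control and 1.66, 2.06 and 1.70 FPKM in siEzh2 samples. That is a ratio of 1.85, from 417 reads over the control and 712 over the siEzh2 samples (log2 fold change 0.51, adjusted p = 0.00181, limma). Since Mcm10 entered only through its siEzh2 samples, that p-value is no free test of direction. With no filter on low values, limma gave adjusted p = 0.00621. Of the 4 GINS subunits, which form 1 complex, 3 rose. Gins1 had 2.24, 2.04 and 2.34 FPKM in control and 3.198, 3.60 and 3.33 FPKM in siEzh2 samples, 1.53 times higher (adjusted p = 0.00118, limma). Gins2 rose 1.27 times, although 67.3% of its exon bases are shared with the antisense gene Gse1, and Gins4 1.16 times. Gins3 had 2.47, 2.89 and 2.64 FPKM in control and 2.75, 2.94 and 2.16 FPKM in siEzh2 samples, with full overlap and a log2 fold change of −0.02 (95% interval −0.24 to 0.20). Cdc45, the third part of the active helicase, rose 1.29 times (adjusted p = 0.00914, limma), with means of 2.96 ± 0.181 and 3.80 ± 0.272 FPKM (SD, n = 3 each).

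At the replication fork 7 of 12 genes rose (58.3%, beside 24.1% of all tested genes) and 5 did not pass. Prim1, the catalytic subunit of primase (chromosome 10 from 128015168 to 128030037, plus strand), had 2.19, 2.80 and 2.27 FPKM in control and 4.48, 4.27 and 3.65 FPKM in siEzh2 samples. All siEzh2 values were above the control values, and Prim1 rose 1.71 times (log2 fold change 0.59, SE 0.0895, adjusted p = 0.0029, limma). Pcna, the sliding clamp, was the most abundant gene of the fork, with 35.4, 34.7 and 33.6 FPKM in control and 47.3, 46.9 and 42.6 FPKM in siEzh2 samples. It rose 1.32 times (log2 fold change 0.39, adjusted p = 0.00168, limma). Pseudogene copies of Pcna are annotated, and reads could have been split between them. Pole, the catalytic subunit of the leading-strand polymerase, had 2.26, 1.88 and 1.94 FPKM in control and 2.71, 2.94 and 3.04 FPKM in siEzh2 samples, 1.43 times higher (adjusted p = 0.0039, limma).

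**Figure D5:**
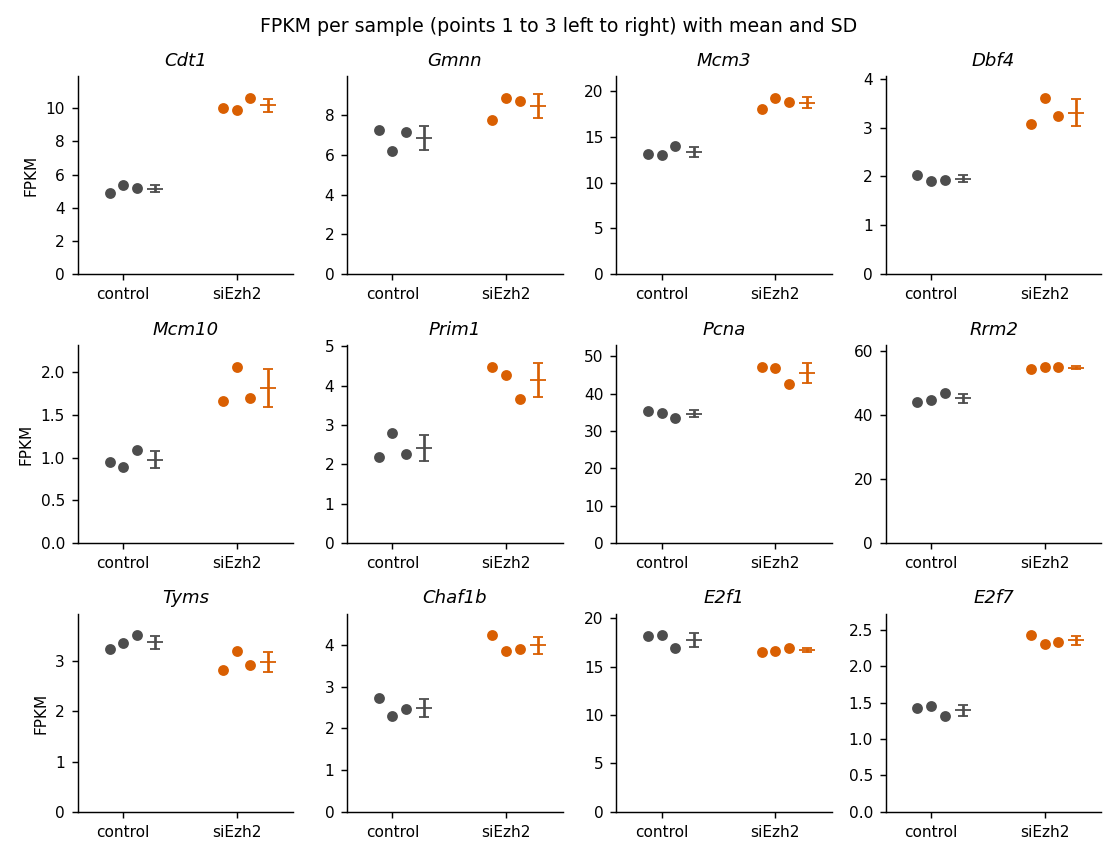
FPKM (y axis, from 0) of 12 members in each sample, control in grey and siEzh2 in orange, with the mean and SD beside the points. Cdt1 and Dbf4 show separate groups, and in E2f1 the groups overlap only in that control sample 3 and siEzh2 sample 3 both lie at 16.9 FPKM.

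Within fork complexes, catalytic and accessory subunits did not all pass together. Pola1, the catalytic subunit of the priming polymerase, rose 1.39 times (adjusted p = 0.00504, limma), while its partner Pola2 had 3.30 ± 0.309 and 3.66 ± 0.215 FPKM (SD, n = 3 each) and did not pass (log2 fold change 0.12, 95% interval −0.04 to 0.27). Pole2, the second subunit of the leading-strand polymerase, also did not pass at 0.11 (95% interval −0.07 to 0.30), with 1.10, 1.26 and 1.23 FPKM in control and 1.27, 1.66 and 1.22 FPKM in siEzh2 samples. Whether subunits of a pair differed from each other was not tested. Pold1, the catalytic subunit of the lagging-strand polymerase, rose 1.17 times. Of the clamp loader subunits, Rfc2 rose 1.32 times (15.1% of its exon bases lie in Lat2) and Rfc3 1.21 times. Rfc5 did not pass, with a log2 fold change of 0.12 (95% interval 0.02 to 0.23, adjusted p = 0.062, limma), although its groups did not overlap. Rfc4 had the widest spread, with 3.18, 3.02 and 3.86 FPKM in control and 3.16, 4.71 and 3.97 FPKM in siEzh2 samples (log2 fold change 0.18, 95% interval −0.13 to 0.49). Rpa2, a subunit of the protein that coats single-stranded DNA, had 5.25 ± 0.225 and 5.85 ± 0.456 FPKM (SD, n = 3 each) and did not pass (log2 fold change 0.13, 95% interval −0.01 to 0.27).

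Among the flap processing and repair genes, Lig1 and Brca1 rose and the other 3 were too low to be tested. Lig1, the ligase that joins Okazaki fragments, had 7.03, 7.55 and 7.48 FPKM in control and 9.45, 9.04 and 8.91 FPKM in siEzh2 samples (log2 fold change 0.28, SE 0.0419, adjusted p = 0.00273, limma). Brca1, which protects stalled forks and acts in recombination, had 1.38, 1.31 and 1.58 FPKM in control and 1.80, 1.97 and 1.87 FPKM in siEzh2 samples (log2 fold change 0.25, adjusted p = 0.010, limma). Exo1, an exonuclease of mismatch repair, had 0.442, 0.361 and 0.512 FPKM in control and 1.08, 1.01 and 0.853 FPKM in siEzh2 samples. This ratio of 2.24 was above that of Cdt1, and it rests on 205 and 421 reads. Ung, which removes uracil from DNA, had 0.370, 0.370 and 0.355 FPKM in control and 0.648, 0.645 and 0.746 FPKM in siEzh2 samples, on 111 and 190 reads. Fen1, the flap endonuclease, had 0.268 ± 0.101 and 0.476 ± 0.102 FPKM (SD, n = 3 each) on 36 and 59 reads, and 84.2% of its exon bases are shared with antisense genes. With no filter on low values, limma gave adjusted p = 0.00546 for Exo1, 0.00279 for Ung and 0.121 for Fen1.

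Of 4 nucleotide supply genes 2 rose, beside 24.1% of all tested genes. Rrm2, the small subunit of ribonucleotide reductase and the more cycle-dependent one (chromosome 12 from 24708241 to 24714146, plus strand), had 44.2, 44.8 and 46.8 FPKM in control and 54.3, 55.1 and 54.9 FPKM in siEzh2 samples. It was the most abundant of the 47 members and rose 1.21 times (log2 fold change 0.27, SE 0.0362, adjusted p = 0.00179, limma). Rrm1, the large subunit, had 15.3, 16.0 and 15.3 FPKM in control and 17.4, 17.0 and 16.9 FPKM in siEzh2 samples, 1.10 times higher (adjusted p = 0.0238, limma). Rrm1 did not pass when control 1 (adjusted p = 0.0717), control 3 (0.0762), siEzh2 1 (0.0646) or siEzh2 2 (0.0578) was left out, or with the replicate block (0.0612). The ratio of Rrm2 to Rrm1 was 2.88, 2.80 and 3.06 in control and 3.11, 3.24 and 3.24 in siEzh2 samples, without overlap (two-sided exact permutation p = 0.10, the smallest possible).

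Neither thymidine enzyme passed the test. Tyms, thymidylate synthase, had 3.24, 3.36 and 3.50 FPKM in control and 2.81, 3.20 and 2.92 FPKM in siEzh2 samples, and Tk1, thymidine kinase 1 of the salvage route, 2.94, 3.13 and 3.08 and then 2.71, 2.65 and 3.03 FPKM. The 3 siEzh2 samples of Tyms lay below its controls, and those of Tk1 overlapped them (log2 fold changes −0.14 and −0.09, 95% intervals −0.26 to −0.02 and −0.21 to 0.03). Tyms was called lower with quantile normalization (adjusted p = 0.0329) and without siEzh2 sample 2 (adjusted p = 0.0329), and Tk1 without siEzh2 sample 3 (adjusted p = 0.0484).

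All 3 genes of histone supply and chromatin assembly rose, beside 24.1% of all tested genes. Chaf1b, a subunit of chromatin assembly factor 1 (chromosome 16 from 93883901 to 93906115, plus strand), had 2.73, 2.29 and 2.46 FPKM in control and 4.22, 3.85 and 3.89 FPKM in siEzh2 samples. It rose 1.601 times (log2 fold change 0.52, SE 0.0579, adjusted p = 0.000923, limma). Chaf1a, the large subunit, had 4.52, 4.51 and 4.32 FPKM in control and 6.37, 6.15 and 5.81 FPKM in siEzh2 samples, 1.37 times higher, with 52.5% of its exon bases shared with the antisense gene Ubxn6. Slbp, which binds the stem-loop of histone mRNA, had 4.61, 4.70 and 4.89 FPKM in control and 5.28, 5.32 and 5.17 FPKM in siEzh2 samples, a rise of 1.11 times (adjusted p = 0.0275, limma). Slbp did not pass when control 1 (adjusted p = 0.0818), control 2 (0.080), siEzh2 1 (0.0656) or siEzh2 2 (0.0797) was left out. Nor did it pass with the replicate block (0.0716) or quantile normalization (0.0641).

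Among the E2F factors the atypical repressors rose, E2f1 did not pass and E2f2 was too low to be tested. E2f7 (chromosome 10 from 110745439 to 110787384, plus strand) had 1.43, 1.45 and 1.31 FPKM in control and 2.42, 2.31 and 2.33 FPKM in siEzh2 samples, 1.69 times higher (log2 fold change 0.49, SE 0.0385, adjusted p = 0.00026, limma). E2f8, which can pair with it, had 1.92, 2.18 and 1.98 FPKM in control and 2.92, 2.84 and 2.70 FPKM in siEzh2 samples, 1.39 times higher (adjusted p = 0.00198, limma), and 11.2% of its exon overlaps an antisense gene. E2f1, the best known activator, was far more abundant, with 18.2, 18.2 and 16.9 FPKM in control and 16.5, 16.6 and 16.9 FPKM in siEzh2 samples. The groups met only at sample 3 of each, and E2f1 did not pass (log2 fold change −0.09, 95% interval −0.18 to 0.01). E2f2, another activator, was below the filter at 0.402 ± 0.0309 and 0.299 ± 0.0813 FPKM (SD, n = 3 each), on 109 and 75 reads.

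A further 92 genes of the same pathway, listed by role with earlier results of these data known, were looked at in the same fit. Of these 83 were tested, 40 were higher (48.2%), 7 lower (8.43%) and 36 did not pass, with a median log2 fold change of 0.16. All tested genes, the background for each further list below, stood at 24.1% higher and 22.7% lower. Of the 83, 5 reached the filter only through their siEzh2 samples, which fixed their direction, and 4 of these were called higher. Those were Recql4 in activation, Atad5 at the fork and 2 in flap processing and repair. With no filter on low values, Recql4 (adjusted p = 0.0874, limma) and Atad5 (0.106) did not pass. Without control sample 3 the number higher among the 83 was 25, and the share higher of all tested genes was 19.4%. In licensing, Orc4, another origin recognition subunit, was the 1 of 6 tested that rose (1.19 times). Dropping control 2 (adjusted p = 0.0516) or adding the replicate block (0.0501) ended that call. In activation 8 of 11 rose. The E-type cyclins, partners of Cdk2, went apart: Ccne2 rose 1.43 times (17.4% of its exon bases lie in the antisense gene Ints8), and Ccne1 fell from 13.3 to 8.44 FPKM (log2 fold change −0.60). Wdhd1, which tethers the priming polymerase to the helicase, rose 1.54 times.

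At the fork 7 of 14 tested genes of that wider list rose and 0 fell. Chtf18, of an alternative clamp loader, rose 2.11 times to a mean of 3.97 FPKM, and Tipin, of the fork protection complex, 1.29 times. In flap processing and repair 5 of 11 rose, of which 2 reached the filter only through their siEzh2 samples, and 1 fell. Rnaseh2b, a subunit of the enzyme that removes ribonucleotides, fell by 0.16 on the log2 scale. Rnaseh2b failed when control 3 was dropped (adjusted p = 0.0523) and with limma's trend and robust options on (0.0576).

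Of 21 further nucleotide genes 10 rose and 2 fell. Dut, which removes dUTP and makes the substrate of Tyms, rose 1.70 times, from 9.002 to 15.3 FPKM, and Ppat, the first enzyme of purine synthesis, 1.59 times. Samhd1, which degrades deoxynucleotides, fell from 22.5 to 18.0 FPKM (log2 fold change −0.31). Tk2, the mitochondrial thymidine kinase, fell by 0.28 on the log2 scale. Tk2 failed when control 2 (adjusted p = 0.0579), control 3 (0.0625), siEzh2 1 (0.0601) or siEzh2 3 (0.06) was dropped, or with no filter (0.0506). In chromatin assembly 5 of 9 rose, with Rbbp4, the histone chaperone shared by many complexes, at 1.38 times (18.0% of its exon bases overlap antisense genes) and Uhrf1, which guides maintenance DNA methylation, at 1.36 times.

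In the wider E2F and RB list 4 of 11 were higher (36.4%) and 3 lower (27.3%), beside 24.1% and 22.7% of all tested genes. Tfdp1, the dimer partner of E2F factors, rose 1.27 times, from 27.3 to 34.6 FPKM. Mybl2, a factor of the late cell cycle, rose 1.46 times (adjusted p = 0.0462, limma). Mybl2 failed when control 1 (adjusted p = 0.128), 2 (0.0832) or 3 (0.0731) or siEzh2 2 (0.0691) or 3 (0.0785) was dropped. It also failed with a pseudocount of 0.1 (adjusted p = 0.0532), quantile normalization (0.0691) or no filter (0.116). The 3 lower genes were E2f5 (from 7.98 to 5.05 FPKM, log2 fold change −0.57), E2f6 (from 20.2 to 15.8 FPKM, −0.34) and Rbl2 (from 4.48 to 3.57 FPKM, −0.26), all counted with repression: E2f5 and the RB relative p130, encoded by Rbl2, in resting cells, and E2f6 with Polycomb proteins. In Rbl2 21.0% of the exon bases overlap antisense genes. The atypical repressors E2f7 and E2f8, among the members, went the other way and were called higher. A common change of repressors was not tested.

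Mitosis genes, of the last phase of the cycle, were looked at for comparison. Of 25 listed and tested 11 were higher (44.0%), 2 lower (8.0%) and 12 did not pass, with a median log2 fold change of 0.15. All tested genes stood at 24.1% higher and 22.7% lower. Whether the share of mitosis genes that were higher differed from that of the replication genes was not tested. Birc5 (survivin) rose 1.41 times and Aurka, a spindle kinase, 1.36 times, while Smc4, of condensin, fell by 0.38 and Prc1, of the central spindle, by 0.31 on the log2 scale (11.1% of the exon bases of Prc1 lie in the antisense gene Rccd1). Cdk1, the kinase that starts mitosis, and Ccnb1, its cyclin, were chosen after their values were seen. Neither passed, with means of 8.97 and 8.72 FPKM for Cdk1 and 11.4 and 11.9 FPKM for Ccnb1.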

How the data were processed

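Each sample had 1 table, in which the authors deposited FPKM per gene, per the file headers. Tools listed in the submitters' processing notes are Trimmomatic, HISAT2, HTSeq and Cufflinks, with build mm10 and no versions or roles. No source used here states if strand was used in counting, which leaves genes with antisense overlap uncertain.

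The comparison was 3 siEzh2 against 3 control samples with limma 3.58.1 (R 4.3.3, no trend, robust fit or covariate) on log2(FPKM + 1). A gene entered if either group averaged 1 FPKM or more. P-values were Benjamini-Hochberg adjusted over all tested genes and called under 0.05. Intervals are limma's 95% intervals, not adjusted. SDs and ratios are of FPKM. The procedure was first tested on simulated data.

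Exon lengths, positions and overlaps came from GENCODE M21, which held 27434 of 27502 IDs. Values times exon length moved in steps of 1 read, and 98.5% to 98.6% of low values were whole within 0.02. These reads gave the depth and a limma-voom alternative.

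The members and lists were chosen with earlier results of these data known. The rule for named members was the 3 called with the largest log2 fold change in each step and all that were lower, did not pass or were filtered. The other members named were added after their values were seen, so that every member is accounted for. From each other list the 2 largest rises and every fall were named. The rises of the further flap processing and repair list are not reported here by name. Numbered samples were not taken as pairs. Alternatives were a pseudocount of 0.1, no filter, quantile normalization, trend and robust on, the replicate block, limma-voom and leaving out each sample.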

Additional observations from a re-analysis of the deposited data

How the results depend on the processing

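Of the 33 members called higher 26 kept the call and direction under all 12 alternatives. Between 27 and 33 members were called higher under any of them, and the 33 by limma-voom on recovered reads were the same genes. With no filter on low values 30 were called, 28 of them shared, with Exo1 and Ung added. Members called lower numbered 1 with quantile normalization, and 0 to 1 when each sample in turn was left out. For the further replication genes, leaving out each sample gave 25 to 35 higher in place of 40. The share higher of all tested genes also fell then, from 24.1% to between 19.4% and 21.2%. With no filter that share was 10.1%. The log2 fold change of Gins3, −0.02, ran from −0.088 (without siEzh2 sample 2) to 0.071 (without siEzh2 sample 3) when each sample was left out, and was 0.02 without control sample 2; the cause was not tested.

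The replicate block gave 29 higher members, 36 higher and 7 lower further replication genes, and 10 higher and 2 lower mitosis genes, and ended the calls of Orc6, Gmnn, Rrm1 and Slbp among members. Deviations of same-numbered samples correlated at 0.024, 0.07 and 0.04, and those of other pairs at −0.062 to 0.022. Each sample correlated best with its own number, a weak hint from the data and not the design. For control 1 the margin was small, at 0.024 with siEzh2 1 and 0.022 with siEzh2 3. Depth limits Fen1, with 36 reads over the control samples.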
